A study of Mus musculus with 10 samples.

Results

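Igf2bp1, Igf2bp2, Igf2bp3, Lin28a, Lin28b, Hmga1, Hmga2, Trim71 and Mycn are genes of early progenitors that are linked to the let-7 microRNAs. These 9 genes were taken by name from the 43629 gene rows of the count tables, in a choice made with earlier results of these data known. They were followed in the dorsal telencephalon of C57BL/6 mouse embryos at E14.5, the tissue from which the cerebral cortex forms, in 5 control and 5 Dot1l-cKO samples. Controls had no Cre allele (+/+) and 1 floxed and 1 wild-type allele of Dot1l (f/+). Dot1l-cKO samples were Cre/+ and Dot1l f/f, so that Cre deletes both alleles of the gene of the histone H3 lysine 79 methyltransferase. The Cre allele was carried by the Dot1l-cKO group alone, so the loss of Dot1l and the presence of the Cre allele cannot be told apart in these samples.

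Let-7 microRNAs accumulate as progenitors mature and repress messages that carry a match to their seed, the bases from position 2 to 8. The RNA-binding proteins LIN28A and LIN28B block the processing of let-7 precursors, and their own messages are let-7 targets, which makes a double-negative loop. IGF2BP proteins bind and stabilise messages, HMGA proteins are architectural chromatin proteins of young neural stem cells, TRIM71 is a ubiquitin ligase and RNA-binding repressor of early development, and MYCN is a transcription factor that drives progenitor proliferation.

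All 9 mature let-7 family sequences matched in RefSeq (GRCm38.p6) share the same seed. Below, 3 of them show how the family differs outside the seed, which is in capitals.
let-7a-5p: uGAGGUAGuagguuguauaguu
let-7e-5p: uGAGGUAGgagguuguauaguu
miR-98-5p: uGAGGUAGuaaguuguauuguu

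The site searched in annotated 3′ UTRs (GENCODE M21, GRCm38) was CTACCTC, the complement of the seed, and its longer form CTACCTCA, called the 8mer. Only the message strand was searched, and every 8mer also holds the shorter match. The 8mer was found in 7 of the 9 members, against 3.97% of the 14367 tested genes with an annotated 3′ UTR. The members are known for their link to let-7, so this share describes the choice of genes. In the longest UTR of each, Trim71 held 4 8mers, Igf2bp1 held 3, Lin28a held 2, and Igf2bp2, Igf2bp3, Lin28b and Hmga2 held 1 each. Lin28b and Hmga2 had 3 further sites of the shorter form, and Igf2bp1 and Hmga1 had 1. Mycn had neither form in its UTR of 913 bases, which says only that these letters are not in that stretch. The sites shown here belong to the members with the largest differences between genotypes and to the pair of Trim71 sites that lie closest together, with the 8mer in capitals.
Igf2bp1, chr11:95961778-95961785, minus strand: tgcgaagtaaaCTACCTCAaggtgtgaagt
Igf2bp1, chr11:95959357-95959364, minus strand: agtgctattaaCTACCTCAgccccagaggg
Igf2bp1, chr11:95958763-95958770, minus strand: aaatggatgaaCTACCTCAgtcctcacagt
Igf2bp2, chr16:22059473-22059480, minus strand: acaaataaaagCTACCTCAggtgtttttta
Hmga2, chr10:120364224-120364231, minus strand: acattcaatttCTACCTCAgcatcagttgg
Trim71, chr9:114509047-114509054, minus strand: gtatggattttCTACCTCAattttggcaaa
Trim71, chr9:114509021-114509028, minus strand: caaaaagttgtCTACCTCAcgtcggcaccg

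Each library held 54202349 to 66556034 counts. A number in the headers of the deposited normalised tables, which the sources do not explain, was 57 for replicates 2 and 3 of both groups and differed in the others. Mitochondrial ribosomal RNA took 0.0471 to 0.492% of the counts in those 4 samples and 5.79 to 10.9% in the other 6, so the members' differences are also given within each set. The Dot1l count, which sums all exons whether deleted or not and so could not check the labels, was 31.4 to 41.5 CPM (counts scaled to library size) in controls and 20.1 to 51.7 CPM in Dot1l-cKO, with a log2 fold change of -0.37 over the samples with number 57 and 0.34 over the rest, neither of which passed. Of 8 radial glia markers, Vim, Fabp7 and Slc1a3 were higher in Dot1l-cKO and Pax6 was lower. All 5 microglia markers were higher, with a summed level of 26.1 to 47.8 CPM in controls and 52.2 to 82.2 CPM in Dot1l-cKO. The summed level of 6 ventral and interneuron markers was 53.9 to 273 CPM and 5.32 to 80.0 CPM, with Lhx6 alone called. Over all genes tested 5.67% were called higher and 1.44% lower. No listed marker of intermediate progenitors, cortical neurons, hem and choroid plexus, erythroid cells, meninges or endothelium was called. Meninges and mesenchyme markers summed to 24.7 to 852 CPM in controls and 30.4 to 782 CPM in Dot1l-cKO. The part of these cell type differences in the members' values was not tested. In bulk tissue, fewer cells of a type and less RNA per cell cannot be told apart.

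Of the 9 members, 8 had enough counts to be tested, and all 8 had a negative log2 fold change in Dot1l-cKO. Igf2bp1, Igf2bp2 and Mycn decreased at an adjusted p under 0.05 in edgeR's quasi-likelihood test, and no member increased. Across all 17039 genes tested, 7.11% passed in either direction, 5.67% as higher and 1.44% as lower. The same 3 members were those whose samples did not overlap between genotypes, with every Dot1l-cKO sample the lower, which held for 2.17% of all genes. The median log2 fold change was -0.47 over the 8 members and -0.006 over all genes tested, of which 8717 were negative and 8322 positive.

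**Figure D1:**
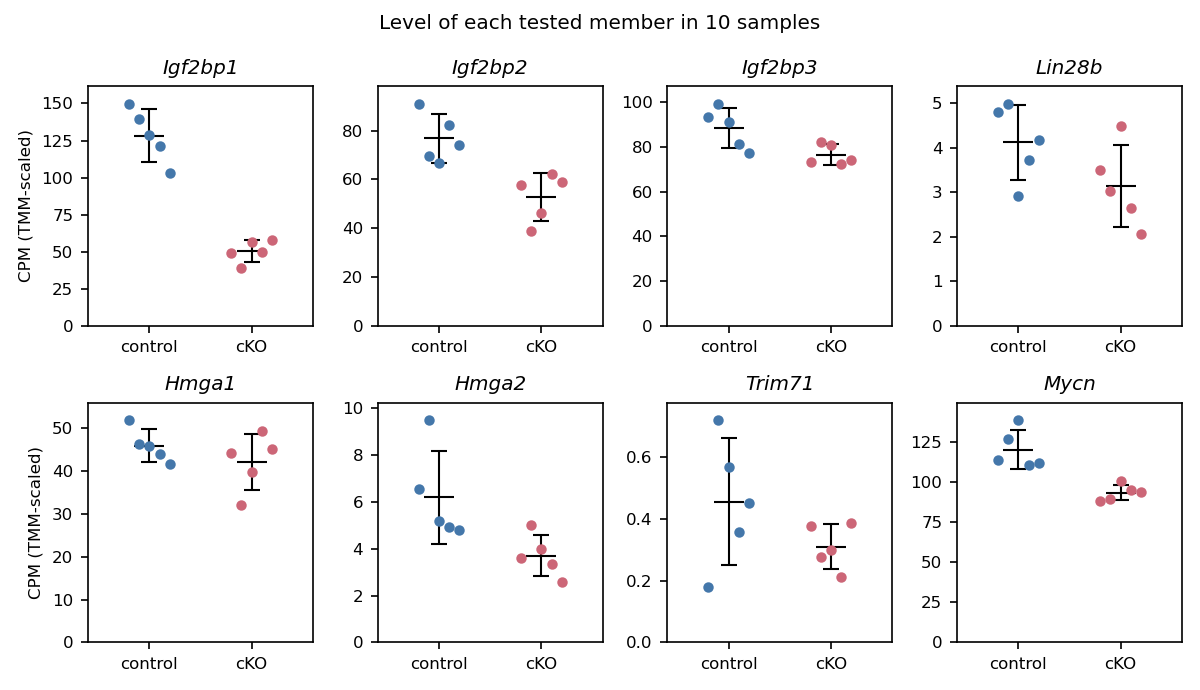
Level of the 8 tested members in CPM (vertical axis, starting at 0, scaled to each gene) in 5 control and 5 Dot1l-cKO (cKO) samples. Points are samples, and the bar with its whiskers is the mean ± SD. The groups are apart for Igf2bp1, Igf2bp2 and Mycn and overlap for the others.

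Igf2bp1, the fetal IGF2 mRNA-binding protein 1, showed the largest difference among the members. The 5 controls, in order of replicate number, had 150, 139, 129, 121 and 103 CPM. The 5 Dot1l-cKO samples had 49.1, 39.2, 56.4, 49.6 and 58.2 CPM. The highest Dot1l-cKO sample was far under the lowest control. Igf2bp1 fell from 128 ± 17.8 to 50.5 ± 7.48 CPM (SD, n = 5 each), to 39.3% of control, a log2 fold change of -1.35 (SE 0.125, 95% interval -1.62 to -1.07, adjusted p = 0.00018 in edgeR). Taken apart, the 4 samples with number 57 gave a log2 difference of -1.51 and the remaining 6 gave -1.24. The gene lies at chr11:95957163-96005940 on the minus strand.

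Igf2bp2, its paralog at chr16:22059009-22163299 (minus strand), decreased less. Control replicates 1 to 5 were at 91.0, 69.8, 66.5, 82.5 and 74.2 CPM. Dot1l-cKO replicates were at 57.7, 38.8, 46.3, 62.2 and 58.9 CPM. The gap between the groups was small, from 62.2 CPM in the highest Dot1l-cKO sample to 66.5 CPM in the lowest control. The level went from 76.8 ± 9.94 to 52.8 ± 9.86 CPM (log2 fold change -0.54, SE 0.135, adjusted p = 0.0345 in edgeR). This call was lost when any of control replicates 1, 2 or 4 or Dot1l-cKO replicates 1 or 3 was left out, with adjusted p of 0.0514 to 0.092, and held without each of the other 5. The log2 difference was -0.69 over the samples with number 57 and -0.47 over the rest.

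Igf2bp3, at chr6:49085223-49214957 (minus strand), did not pass the test. Its levels ran from 77.0 to 99.2 CPM in controls, with a median of 91.0, and from 72.5 to 82.1 CPM in Dot1l-cKO. The upper Dot1l-cKO samples reached into the range of the lower controls. The log2 fold change was -0.21 (95% interval -0.39 to -0.03, adjusted p = 0.164 in edgeR), and the log2 difference was -0.22 over the samples with number 57 and -0.19 over the rest.

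Per kilobase of annotated exon, the order of the 3 Igf2bp genes differed between genotypes. In controls Igf2bp1 stood at 13.3 ± 1.84, Igf2bp3 at 10.8 ± 1.11 and Igf2bp2 at 10.4 ± 1.34 CPM per kb, and the last pair lay within each other's spread. In Dot1l-cKO Igf2bp3 stood at 9.37 ± 0.567, Igf2bp2 at 7.13 ± 1.33 and Igf2bp1 at 5.21 ± 0.773 CPM per kb. The sum of the 3 went from 34.5 ± 3.37 to 21.7 ± 1.40 CPM per kb. Igf2bp1 made up 35.4 to 40.0% of that sum in controls and 20.9 to 26.5% in Dot1l-cKO, whereas Igf2bp3 made up 29.2 to 33.8% and 39.3 to 52.0%.

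**Figure D2:**
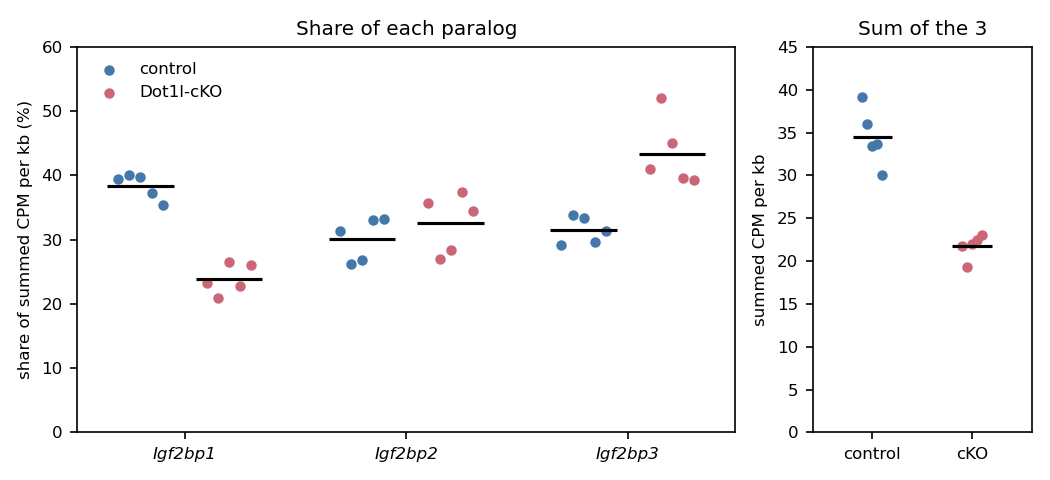
Left, share of each Igf2bp gene in the summed level of the 3 (percent of CPM per kb), and right, that sum in CPM per kb, for control and Dot1l-cKO samples. Points are samples and bars are means. Igf2bp1 goes from the largest mean share, 38.4%, to the smallest, 23.9%.

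The ratios of paralogs within a sample describe the same shift. The pairs were chosen after the values were seen, so a permutation test run on them is not used as support. The ratio of Igf2bp1 to Igf2bp3 per kb was 1.13 to 1.35 in controls and 0.403 to 0.664 in Dot1l-cKO. The ratio of Igf2bp1 to Igf2bp2 was 1.06 to 1.53 and 0.609 to 0.932, so neither ratio overlapped between the groups. That of Igf2bp2 to Igf2bp3 did, at 0.776 to 1.12 and 0.520 to 0.946.

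Mycn, at chr12:12936093-12941914 (minus strand), had the highest level per kb of the members in both groups, at 36.5 and 28.4 CPM per kb. Control replicates 1 to 5 were at 114, 127, 139, 111 and 112 CPM. Dot1l-cKO replicates were at 88.5, 89.5, 101, 95.3 and 93.9 CPM. Every Dot1l-cKO sample was under every control. Mycn fell to 77.7% of control (log2 fold change -0.36, SE 0.077, 95% interval -0.53 to -0.19, adjusted p = 0.0161 in edgeR). The log2 difference was -0.48 over the samples with number 57 and -0.28 over the rest. Among the 6 samples outside header number 57 the log2 fold change was -0.28 and did not pass (adjusted p = 0.0796 in edgeR, and 6.51e-05 to 0.193 over all alternatives).

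Hmga2, at chr10:120361275-120476469 (minus strand), had a larger fold difference than Mycn but did not pass. Control replicates 1 to 5 were at 6.55, 9.47, 5.17, 4.94 and 4.78 CPM. Dot1l-cKO replicates were at 3.60, 5.00, 3.99, 3.35 and 2.58 CPM. The groups overlapped, because Dot1l-cKO replicate 2 lay above control replicates 4 and 5, while control replicate 2 of the same header number was the highest of all. The log2 fold change was -0.74 (SE 0.227, 95% interval -1.24 to -0.24, adjusted p = 0.0787 in edgeR), and the log2 difference was -0.644 over the samples with number 57 and -0.765 over the rest. With the replicate number as a block, Hmga2 passed at -0.72 (adjusted p = 0.015 in edgeR, and 0.0122 to 0.413 over all alternatives). That block gave 4 members called lower, while all genes called lower went from 246 to 495. Same-numbered samples deviated together, with correlations of 0.131 to 0.597. Of 10 samples, 5 were closest to their own number among the 5 of the other group. These values did not establish the pairing. Samples of the same replicate number also had the same header number.

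Hmga1, at chr17:27556497-27563674 (plus strand), was at 41.5 to 51.8 CPM in controls and 32.1 to 49.2 CPM in Dot1l-cKO. The groups overlapped widely, and the log2 fold change of -0.12 (95% interval -0.36 to 0.12) had an adjusted p of 0.586 in edgeR. The log2 difference was -0.37 over the samples with number 57 and 0.02 over the rest. A near-identical copy, Hmga1b, matches over 1602 bases and had 574 counts in total, against 26207 for Hmga1. How reads common to the pair were counted is not known, so the value of Hmga1 is uncertain.

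The LIN28 pair was low. Lin28b, at chr10:45376620-45486395 (minus strand), was at 2.92 to 4.98 CPM in controls and 2.06 to 4.48 CPM in Dot1l-cKO, with a log2 fold change of -0.39 (95% interval -0.87 to 0.09, adjusted p = 0.351 in edgeR). Over the samples with number 57 its log2 difference was -0.05, and over the rest it was -0.65. Lin28a, at chr4:134003330-134018841 (minus strand), had 2, 6, 0, 0 and 3 counts in control replicates 1 to 5 and 8, 1, 2, 5 and 1 counts in Dot1l-cKO replicates, and was not tested. At this depth neither a level nor a difference of Lin28a could be resolved.

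Trim71, at chr9:114507133-114564369 (minus strand), had 9 to 41 counts per library. It was at 0.181 to 0.719 CPM in controls and 0.211 to 0.387 CPM in Dot1l-cKO, and both the lowest and the highest value were controls. The log2 fold change of -0.56 had a 95% interval of -1.29 to 0.16 (adjusted p = 0.383 in edgeR), and the log2 difference was -1.07 over the samples with number 57 and 0.02 over the rest.

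**Figure D3:**
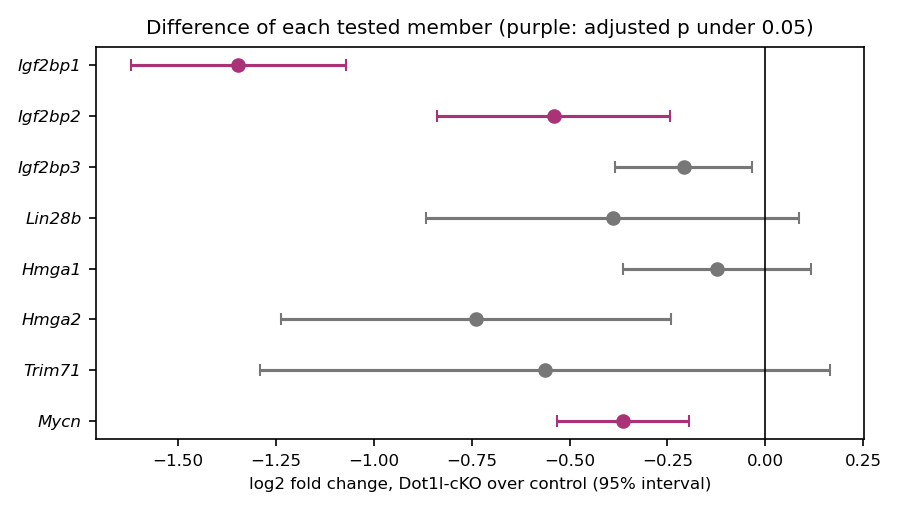
Log2 fold change of Dot1l-cKO over control for the 8 tested members (horizontal axis, with the line at 0), with 95% intervals from edgeR. Purple marks an adjusted p under 0.05. The intervals of Igf2bp3 and Hmga2 lie under 0 although neither passed, and those of Lin28b, Hmga1 and Trim71 include 0.

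Among 15 other genes known as let-7 targets, 5 decreased and none increased, with a median log2 fold change of -0.37. Over all genes tested 1.44% were lower and 5.67% higher. Of the 15, 7 were lower in DESeq2, 3 in the samples outside header number 57 and 0 within it or at an adjusted p under 0.01. Ccnd1, the G1 cyclin D1, fell from 82.9 ± 18.8 to 44.3 ± 9.84 CPM (log2 fold change -0.90, adjusted p = 0.0106 in edgeR). Nr2e1, a nuclear receptor that maintains neural stem cells, fell from 47.6 ± 5.41 to 29.1 ± 5.63 CPM (-0.71, adjusted p = 0.0114), with -0.99 over the samples with number 57 and -0.53 over the rest. Cdc25a, a phosphatase that activates cyclin-dependent kinases, went from 64.3 ± 6.13 to 48.5 ± 4.21 CPM (-0.41, adjusted p = 0.0146). It passed neither over the samples with number 57 (-0.47, adjusted p = 0.222 in edgeR) nor over the rest (-0.35, adjusted p = 0.0663). Ccnd1, Nr2e1 and Cdc25a are cell-cycle and stem-cell genes. The others were Cdk6, the partner kinase of cyclin D (-0.66, adjusted p = 0.0301), and Dicer1 (below). None of these 5 held the 8mer in an annotated 3′ UTR, and Cdc25a alone held the shorter match.

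Across the transcriptome, 570 tested genes held the 8mer. Of them 2.81% were called lower and 4.74% higher, against 1.36% and 6.13% of the 13797 genes with a UTR that lacks it. The medians were -0.041 and 0.001 on the log2 fold change scale, beside an SD of 0.029 between Dot1l-cKO samples in the median of the genes with the site. Genes with the site also had longer UTRs, with a median of 2464.5 against 1169 bases. The part of UTR length was not tested. The genes with the site include the members that hold it, so Igf2bp1 and Igf2bp2 are among those called lower.

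Of 17 genes of microRNA processing, Dicer1, the ribonuclease that cuts precursors to mature microRNAs, decreased from 183 ± 5.98 to 148 ± 14.2 CPM (log2 fold change -0.31, adjusted p = 0.0266 in edgeR). Its call was lost without any of control replicates 1, 2 or 4 or Dot1l-cKO replicates 1 or 4 (adjusted p of 0.0544 to 0.0702), and in the 6 samples outside header number 57 (adjusted p = 0.0579). The other 16 did not pass, and the median of the list was -0.17. Of all genes tested, 1.44% were called lower. The list had 2 genes called lower with the replicate block or the header-number block and 3 in DESeq2. It had 0 within header number 57 and 0 outside it. Of 12 let-7 precursor genes, 10 were matched and 4 were tested, none of which passed. Mirlet7a-1 had a log2 fold change of -0.11 (adjusted p = 0.9) and Mirlet7c-1 of -0.32 (adjusted p = 0.392). Counts at these loci in a library of long RNA are not mature let-7, whose level was not measured here.

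The IGF axis, whose Igf2 message gives IGF2BP proteins their name, had no called gene among 10 (median -0.11). Highest in mean CPM, which is not scaled to gene length, were Irs1 and Igfbp2. Irs1, an adaptor of the insulin and IGF receptors, was at -0.21 (adjusted p = 0.503 in edgeR). Its value was -0.49 over the samples with number 57 and -0.06 over the rest. Igfbp2, a secreted IGF-binding protein, was at -0.11 (adjusted p = 0.723 in edgeR). Of 15 partner proteins of IGF2BP and m6A factors, none was called (median -0.12). Ybx1, an mRNA-binding protein, was at 0.03 (adjusted p = 0.877), and Dhx9, an RNA helicase, at -0.26 (adjusted p = 0.397). Counts of 0 called genes apply to edgeR at an adjusted p under 0.05, and DESeq2 also called none in either list. Across all genes tested 7.11% passed in either direction, so 0 in lists this short does not set them apart. At an unadjusted p under 0.05 the IGF axis had 1 gene and the partner list 0, and none of the 4 tested let-7 precursor genes reached it. At the same level there were 6 of 17 genes of microRNA processing and 9 of 15 other let-7 targets. The MYC network (below) had 5 of 19, and Bmi1 also reached it. The share of all genes at this level is not given, so these counts have no background beside them.

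In the MYC network, 1 of 19 genes passed as lower, against 1.44% of all genes, and 4 did in DESeq2. Fbxw7, the ubiquitin ligase subunit that marks MYC proteins for degradation, went from 90.9 ± 3.47 to 73.9 ± 5.13 CPM (log2 fold change -0.30, adjusted p = 0.0169 in edgeR). Without control replicate 4 its adjusted p was 0.0505. Bmi1, a Polycomb repressor of the Ink4 locus, was at -0.29 (adjusted p = 0.202) and passed with the replicate block (-0.29, adjusted p = 0.019) and the header-number block (adjusted p = 0.0252). Cdkn2a and Cdkn2b were too low to test.

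**Figure D4:**
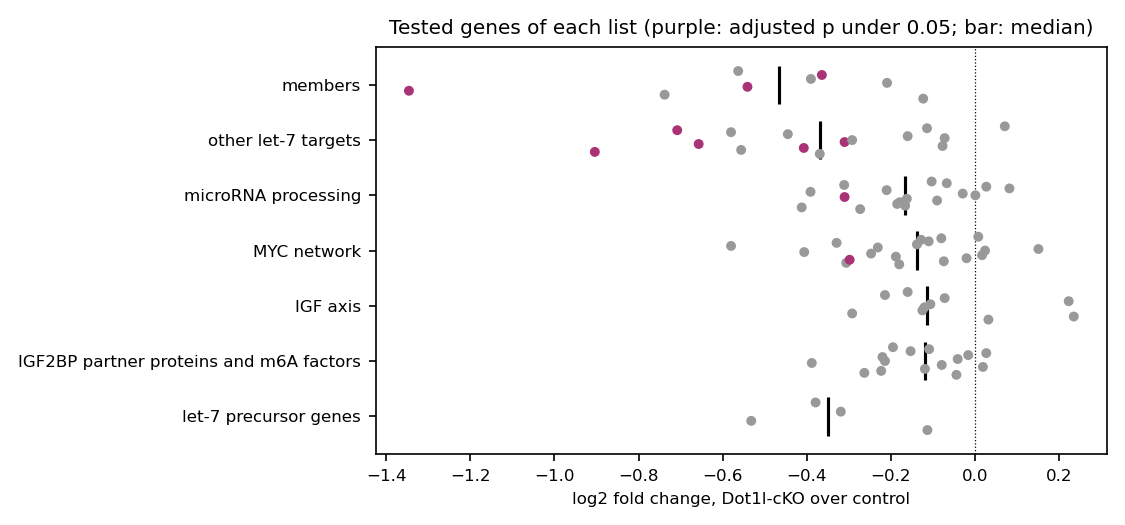
Log2 fold change of Dot1l-cKO over control (horizontal axis) for the tested genes of each list, with the dotted line at 0. Points are genes, purple marks an adjusted p under 0.05 and bars are medians. The medians run from -0.47 for the members to -0.11 for the IGF axis, and some genes stand in more than 1 list.

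The genes whose profile over the 10 samples was nearest to that of Igf2bp1 were sought among 12652 genes, by the root mean square difference of log2 CPM centred on the control mean. The profile includes the genotype difference, so the list is a description. Nearest were Otx1 (0.157) and Lhx2 (0.193), both homeodomain factors of the early forebrain, then Grb10, an imprinted growth-factor receptor adaptor (0.22), Sox1, a factor of neural progenitors (0.265), and 2410018L13Rik (0.277). The median over all candidates was 0.975. Lhx2 fell from 276 ± 33.8 to 119 ± 10.9 CPM and Grb10 from 633 ± 120 to 210 ± 33.9 CPM.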

How the data were processed

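The authors sequenced stranded total RNA libraries as paired ends, trimmed the reads with Trim Galore 0.2.8, mapped them to mm10 with TopHat2 2.0.9 and counted them per gene of an Ensembl annotation with HTSeq 0.6.0 in reverse-stranded mode. The deposited tables hold raw counts per gene. A further set of deposited tables holds a signal, the same counts divided by DESeq2 1.6.1 size factors. No per-sample column was left out. Symbols were matched by identifier for 42462 of 43629 rows, and rows without one held 0.268% of the counts.

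Counts were tested with edgeR 4.0.16 (filterByExpr, TMM, quasi-likelihood) in R 4.3.3, with Benjamini-Hochberg adjustment over all 17039 genes tested and a threshold of 0.05. CPM are TMM-scaled. Scripts were tested on simulated data. The labels call the samples biological replicates. No 2 libraries of the same group agreed within sampling noise. Same-numbered samples deviated together, with correlations of 0.131 to 0.597 over 5 pairs, and 5 of 10 samples were closest to their own number. A block on the number was an alternative, as were DESeq2 1.42.0, other scaling and filters, header-number sets, limma 3.58.1 on log2(normalised count + 1) and leaving out each sample.

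Named were all members, Dot1l as the targeted gene and the 5 genes nearest to Igf2bp1. In each list the called genes with the smallest adjusted p (up to 4) were named, or else the 2 with the highest mean CPM. A further check gene of the rule is not reported here. Cell type markers and Cdk6 were named beside their counts. The members and lists were chosen with earlier results of these data known. The planned DESeq2 alternative was its default form. A form with independent filtering set for 0.05 was run first by mistake, and its counts, close to the default's, were seen before the planned form was restored. Both are given.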

Additional observations from a re-analysis of the deposited data

How the results depend on the processing

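Igf2bp1 stayed lower in all alternatives, at -1.47 to -1.26, and missed the threshold only within header number 57, where 2 against 2 samples gave 1 called gene, 1 higher and 0 lower, and 0 members. The 6 other samples gave 745 called genes, 590 higher and 155 lower. DESeq2 called 2011 genes, 663 lower, and with its filtering set for 0.05, an alternative added after seeing the data, 2001 and 658. Both called 4 members, Hmga2 included. With the replicate block 495 genes were lower, and the block changed the calls of Hmga2 and Bmi1 alone among the members and the genes named by rule. A header-number block gave 597 lower genes and Hmga2 passed (adjusted p = 0.0328). At an adjusted p under 0.01, 495 genes were called, 422 higher and 73 lower, and 1 member. The cause of these changes was not tested, beyond the fewer samples or stricter threshold. Leaving out each sample gave 750 to 1357 called genes, 624 to 1076 higher, 126 to 343 lower and 2 to 3 members. Some signs turned. Outside header number 57, Hmga1 was at 0.0124 and Igfbp2 at 0.0771. Dot1l was at -0.371 within it and at 0.339 outside. In limma Dot1l was at -0.00583 and Ybx1 at -0.00269. With 1 sample left out, Igfbp2 ran from -0.208 to 0.00458, Ybx1 from -0.0106 to 0.0668, Dot1l from -0.0458 to 0.247 and Mirlet7a-1 from -0.263 to 0.0917, and 3 to 6 of the other let-7 targets were called lower. The median of let-7 site genes was -0.043 to -0.038 with other site definitions. Trim71 has no value with at least 10 counts in every sample. Depth limits Lin28a and Trim71.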

Other observations

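Of the genes that overlap a member on the opposite strand, 3 could be tested. Gm29202, opposite Igf2bp1, went from 0.848 ± 0.165 CPM in the control group to 0.482 ± 0.0710 CPM (log2 fold change -0.81, SE 0.19, adjusted p = 0.0256 in edgeR). It had 23 to 69 counts per library and was lower along with Igf2bp1, whose level was 128 ± 17.8 and 50.5 ± 7.48 CPM. Whether the counts of Gm29202 are separate from those of Igf2bp1 on the other strand was not tested. Malsu1, opposite Igf2bp3, was at 14.9 ± 1.04 and 15.7 ± 0.729 CPM (adjusted p = 0.635 in edgeR). AI413582, opposite Hmga1, was at 4.48 ± 1.36 and 6.43 ± 0.996 CPM, a log2 fold change of 0.52 that did not pass (adjusted p = 0.164 in edgeR). These genes were chosen by position after the values of the members were known.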
